A study of Homo sapiens with 4 samples.

Results

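Small-RNA processing and Argonaute genes were examined in SB cells, in which an shRNA holds down AEG-1, as compared to that in SCt control cells. The set held 10 genes, AGO1, AGO2, AGO3, AGO4, DROSHA, DGCR8, XPO5, DICER1, TARBP2 and TNRC6A, of the 23484 genes tested, and they were chosen by name. The arrays carry no gene names, so each probe was named through its accession in the RefSeq gene table, which gave 14 probes for the 10 genes. An accession without a gene symbol there was counted as a gene of its own, also among the 23484. SAS is a line of human tongue squamous cell carcinoma. SB cells (labelled B) were made with a lentiviral pLKO.1-LYRIC shRNA-B vector, LYRIC being another name of AEG-1, whose gene symbol is MTDH. For SCt cells (labelled CTL) the sources differ, as the labels name only the pLKO.1 vector and the study's methods name a scrambled shRNA. Whether SCt cells also made a hairpin RNA is therefore not settled. Both lines went through puromycin at 2 μg/ml for 14 days and were grown on with puromycin as stable clones, and whether each line goes back to a single cell is not stated. RNA of SB cells (red, Alexa 647) and of SCt cells (green, Alexa 555) shared each of 4 two-colour arrays. The question was whether the line that carries the AEG-1 shRNA differed in the transcripts of the RNA interference machinery.

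On each array 43118 spots carried 34127 probes, and between 84.7% and 90.3% of the spots were well above background in each channel. No array had the dyes exchanged, so a probe's preference for 1 dye cannot be told apart from a difference between the lines. The 4 arrays lay on 1 slide and are called biological replicates in the labels, but separate cultures are not documented, and the p-values measure the spread between these arrays, which may be technical. MTDH gave log2 ratios of −3.18, −3.01, −3.12 and −3.41, which was 9.07-fold lower in SB cells on average and fits the labels. All 7 squamous epithelial markers looked up, among them KRT5, KRT14 and TP63, were well above background in both lines on all arrays, as were 9 of 10 markers of fibroblasts, leukocytes and endothelium, PDGFRB being the exception.

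MicroRNAs start as hairpins in long primary transcripts. The Microprocessor, made of the nuclease DROSHA and its RNA-binding partner DGCR8, cuts the hairpin out, and exportin 5 (XPO5) carries it to the cytoplasm. There DICER1, together with the double-stranded RNA-binding protein TARBP2, trims it to a short duplex, of which 1 strand is loaded into an Argonaute protein. The Argonautes bind the scaffold TNRC6A (GW182), which recruits the deadenylases and decapping factors that silence target mRNAs. A vector-borne shRNA enters this route at the export step and relies on DICER1 and the Argonautes. AGO2 is the Argonaute known for cutting a fully matched target.

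None of the 10 genes was past an adjusted p of 0.05 between SB and SCt cells (limma, Benjamini-Hochberg adjustment over all 28505 tested probes). All 14 probes were well above background in both lines on all 4 arrays, and so every member was tested. The log2 ratio is the level in SB over SCt cells on each array, after correction for background and loess normalization. With each gene read by its brightest probe, 0 of 10 members were called, whereas 3.52% of all genes were, of which 296 (1.26% of all genes) lay higher in SB cells and 530 (2.26%) lay lower. By probes, the calls were 0 of 14 against 3.70% of all probes. At an unadjusted p under 0.05 there were 2 of 10 members, AGO2 and DICER1, as compared to 18.2% of all genes, and 4 of 14 member probes as compared to 18.7% of all probes. The methods' t-test called 0 of all genes after adjustment and did not call MTDH either, so its 0 members carry no weight. Before adjustment it had 1 member and 3206 of all 23484 genes under a p of 0.05. The scanner software's own ratios called 0 members where they called 2.44% of all genes. At an unadjusted limma p under 0.05, the share of member genes was thus near that of all genes. The share of member probes, 4 of 14, was above that of all probes. With 10 genes, 0 calls cannot be told apart from a share of 3.52%. The median log2 ratio was 0.03 for the members and 0.01 for all genes. Regardless of sign, the median size was 0.10 for the members and 0.07 for all genes. A total of 7 members lay above 0 and 3 below. The values ran from −0.22 for DICER1 to 0.19 for AGO2.

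With loess normalization, the spread between the arrays gave an interval for each ratio. The SD over 4 arrays lay between 0.07 and 0.19 for the brightest probes, with a median of 0.12 for the members and 0.11 for all genes. The 95% confidence intervals of limma reached down to −0.35 at most, for DICER1, and up to 0.34 at most, for AGO2. A fall of over 1.28-fold or a rise of over 1.27-fold therefore lay outside the interval of each member's brightest probe. The intervals do not cover a probe's preference for 1 dye, and they may not cover differences between cultures. The bounds also hold for loess only, and with each array centred on its median the estimate for AGO1 was 0.50, beyond them. The smallest change among the 826 genes that were called was 0.22. An offset of 50 that was added to the intensities makes the ratios of weak spots smaller.

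**Figure D1:**
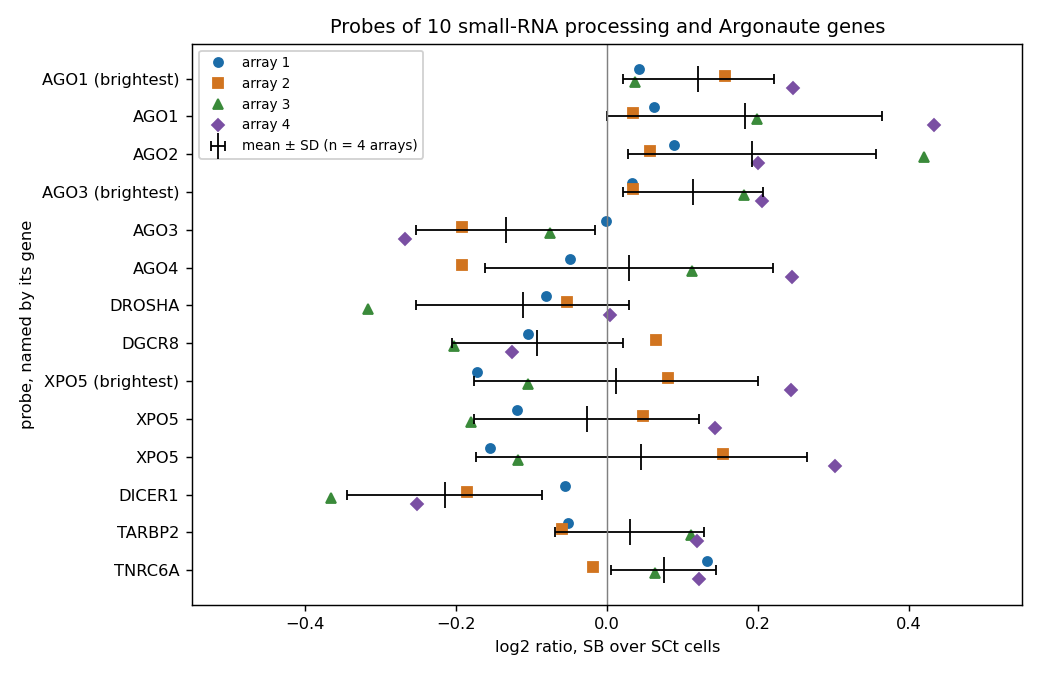
Log2 ratios, SB over SCt (x axis), are drawn for each of the 14 probes (y axis, named by gene), with 1 symbol for each of 4 arrays and a bar for the mean ± SD. DICER1 and 1 AGO3 probe lay below 0 on all arrays, and both AGO1 probes, AGO2 and the brightest AGO3 probe lay above 0 on all arrays, with means of 0.22 or less in size.

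Among the Argonautes, AGO2 had the highest mean ratio. Its probe (A_23_P112159, accession NM_012154) was spotted 10 times on each array, and the log2 ratios were 0.09, 0.06, 0.42 and 0.20. The mean was 0.19 ± 0.16 (SD, n = 4 arrays; limma, adjusted p = 0.151). The ratio was above 0 on all arrays, and array 3 stood highest. The SD between the spots of a single array was only 0.04 to 0.07, so most of the spread lay between arrays. The normalized log2 intensity, which sets the arrays on a shared scale, was 10.73, 10.85, 10.91 and 11.22 in SB cells. It was 10.64, 10.79, 10.49 and 11.02 in SCt cells. The ranges of the lines overlapped, and array 4 was the brightest in both.

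AGO1, which binds microRNAs but is not known as the main slicer, was read by 2 probes. The brightest (A_33_P3402116) gave log2 ratios of 0.04, 0.16, 0.04 and 0.25, with a mean of 0.12 ± 0.10 (SD, n = 4 arrays; limma, adjusted p = 0.303). The other (A_33_P3380587) gave 0.06, 0.03, 0.20 and 0.43, with a mean of 0.18 ± 0.18 (SD, n = 4 arrays; limma, adjusted p = 0.189). Both probes lay above 0 on all 4 arrays, and neither was past the threshold.

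The probes of AGO3 went opposite ways. The brightest (A_33_P3244882) gave log2 ratios of 0.03, 0.03, 0.18 and 0.20, with a mean of 0.11 ± 0.09 (SD, n = 4 arrays; limma, adjusted p = 0.329). The other (A_23_P97021), which is listed under the same accession, gave −0.0019, −0.19, −0.08 and −0.27, with a mean of −0.13 ± 0.12 (SD, n = 4 arrays; limma, adjusted p = 0.264). The difference between the probes was therefore taken within each array, after these values had been seen, together with that of every other gene with several probes. It was 0.25 ± 0.18 for AGO3 (SD, n = 4 arrays) and had the same sign on all 4 arrays, yet it was not past the threshold (limma, adjusted p = 0.127 over 4196 genes). Of these genes 0.691% were past it. For AGO1 the difference was −0.06 ± 0.14 (SD, n = 4 arrays; limma, adjusted p = 0.660).

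AGO4, whose gene lies in a cluster with AGO1 and AGO3, gave log2 ratios of −0.05, −0.19, 0.11 and 0.24. The mean of 0.03 ± 0.19 (SD, n = 4 arrays; limma, adjusted p = 0.874) was smaller than the spread, with 2 arrays on each side of 0. The letters of the probes were not used here, so cross-hybridization between the similar Argonaute mRNAs was not tested.

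**Figure D2:**
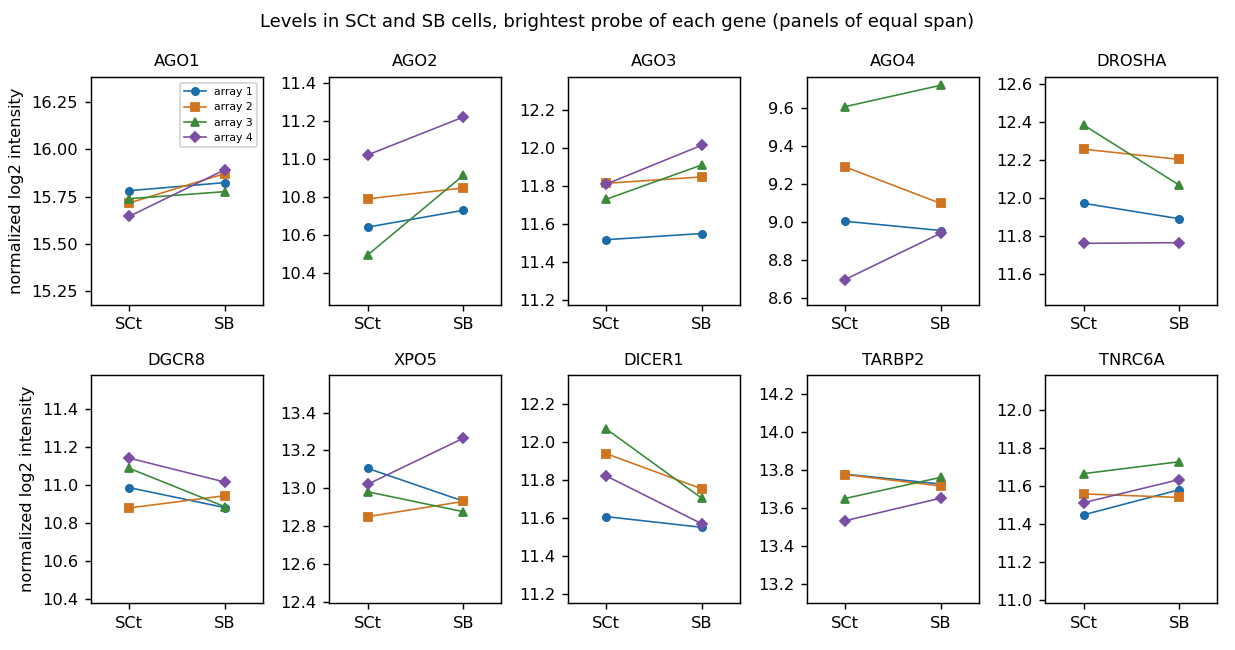
Normalized log2 intensity (y axis) of the brightest probe of each of the 10 genes in SCt and SB cells (x axis), with 1 line for each of 4 arrays. The panels have equal spans, and in all 10 panels the levels of SB cells overlapped those of SCt cells.

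The Microprocessor genes both had mean ratios below 0. DROSHA (A_23_P133596) gave log2 ratios of −0.08, −0.05, −0.32 and 0.0038, with a mean of −0.11 ± 0.14 (SD, n = 4 arrays; limma, adjusted p = 0.384). Array 3 stood apart at the low end, and array 4 lay at about 0. DGCR8 (A_23_P211355) gave −0.11, 0.06, −0.20 and −0.13, with a mean of −0.09 ± 0.11 (SD, n = 4 arrays; limma, adjusted p = 0.448). It was below 0 on 3 of 4 arrays.

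The DGCR8 mRNA is itself a known substrate of DROSHA. RefSeq places hairpins of 2 microRNA genes, MIR3618 and MIR1306, within DGCR8, and 1, MIR3173, within DICER1. For each microRNA gene, 1 mature strand is shown, because these genes of the machinery carry microRNAs of their own. MIR1306 and MIR3173 also have a 3p strand, which is not shown. The capitals mark the seed, bases 2 to 8, and the positions refer to GRCh38.p14, with chr22:20085797-20085818 on the plus strand for MIR3618, chr22:20086072-20086093 on the plus strand for MIR1306 and chr14:95137961-95137982 on the minus strand for MIR3173.
hsa-miR-3618: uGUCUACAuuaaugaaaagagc
hsa-miR-1306-5p: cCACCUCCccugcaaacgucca
hsa-miR-3173-5p: uGCCCUGCcuguuuucuccuuu
None of the 3 shares a seed with another. The arrays were not read for these short RNAs, and the values for DGCR8 and DICER1 refer to their mRNA probes alone.

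XPO5, which exports the hairpins, was read by 3 probes. The brightest (A_33_P3228366) gave log2 ratios of −0.17, 0.08, −0.10 and 0.24, with a mean of 0.01 ± 0.19 (SD, n = 4 arrays; limma, adjusted p = 0.954). A further probe (A_23_P256855) had −0.12, 0.05, −0.18 and 0.14, and the dimmest (A_33_P3228375) had −0.16, 0.15, −0.12 and 0.30. All 3 probes were lower in SB cells on arrays 1 and 3 and higher on arrays 2 and 4, so the probes shared their spread between arrays. The means of A_23_P256855 and A_33_P3228375 were −0.03 and 0.05, with adjusted p-values of 0.867 and 0.810 (limma). The brightest probe and A_23_P256855 differed by 0.04 ± 0.07 (SD, n = 4 arrays; limma, adjusted p = 0.761).

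DICER1, the nuclease that cuts the hairpin to its short duplex, had the lowest ratio of the 10 genes. Its probe (A_33_P3212490, accession NM_177438) gave log2 ratios of −0.06, −0.19, −0.37 and −0.25. The mean was −0.22 ± 0.13 (SD, n = 4 arrays), 1.16-fold lower in SB cells, with a limma p of 0.00516 before and 0.0856 after adjustment over all probes. The ratio was below 0 on all 4 arrays, which 26.8% of all genes shared with it in either direction. The normalized log2 intensity was 11.55, 11.75, 11.70 and 11.57 in SB cells. It was 11.61, 11.94, 12.07 and 11.82 in SCt cells. Only array 1 of SCt cells lay within the range of SB cells. Of all genes 3.59% had a lower ratio. The adjusted p of limma did not fall under 0.0736 in any of 16 alternative ways of processing the data that used it. The 16 are not independent of each other. Aquantile normalization after loess returned the same adjusted p of 0.0856 (limma). The series table and the scanner software gave the same ratio of −0.223.

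TARBP2, a partner of DICER1, gave log2 ratios of −0.05, −0.06, 0.11 and 0.12. The mean was 0.03 ± 0.10 (SD, n = 4 arrays; limma, adjusted p = 0.839). PRKRA (PACT), the other double-stranded RNA-binding partner of DICER1 and not one of the 10 genes, had a lower mean than any of them. Its log2 ratios were −0.08, −0.34, −0.42 and −0.21, with a mean of −0.26 ± 0.15 (SD, n = 4 arrays; limma, adjusted p = 0.0511). PRKRA lay just short of the threshold and was past it in 4 of 16 alternatives, among them without array 1 (limma, adjusted p = 0.0400) and without array 4 (limma, adjusted p = 0.0127), but over all alternatives its adjusted p ranged from 0.0127 to 0.347.

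TNRC6A, the scaffold through which Argonautes silence mRNAs, gave log2 ratios of 0.13, −0.02, 0.06 and 0.12. The mean was 0.07 ± 0.07 (SD, n = 4 arrays; limma, adjusted p = 0.521), the smallest spread of the 14 probes. Its paralogs stood close by. TNRC6B had 0.07 ± 0.07 (SD, n = 4 arrays; limma, adjusted p = 0.580). The brightest probe of TNRC6C had 0.12 ± 0.12 (SD, n = 4 arrays; limma, adjusted p = 0.323), whereas its dimmer probe had −0.08 ± 0.10 (SD, n = 4 arrays; limma, adjusted p = 0.510).

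**Figure D3:**
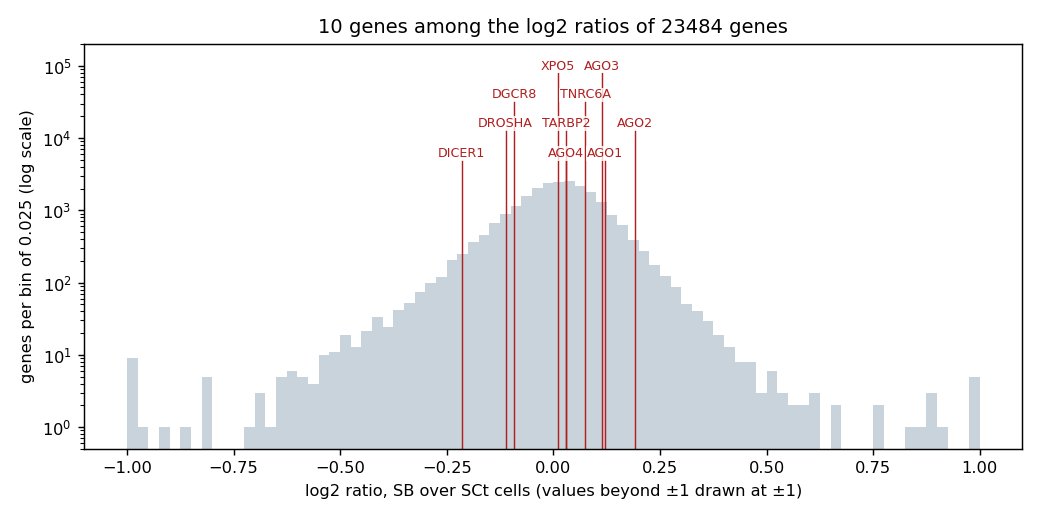
Histogram of the mean log2 ratio of SB over SCt cells (x axis) for all 23484 genes by their brightest probe (y axis, genes per bin on a log scale), with a red line at each of the 10 genes. The members lie between −0.22 for DICER1 and 0.19 for AGO2. Of all genes, 3.59% had a lower ratio than DICER1 and 95.8% a lower ratio than AGO2.

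The levels of SB and SCt cells did not overlap in 0 of the 10 genes, as compared to 2.24% of the genes with values on all 4 arrays. Of the 10 brightest probes, 4 (AGO1, AGO2, AGO3 and DICER1) had the same sign on all arrays, as compared to 26.8% of all genes. AGO2, DROSHA, DGCR8 and DICER1 departed furthest from 0 on array 3, AGO1, AGO3, AGO4, XPO5 and TARBP2 did so on array 4, and TNRC6A did so on array 1. Whether the genes moved together over the arrays was not tested.

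The machinery around the 10 genes was read from 7 lists with 89 genes, of which 78 were tested. By their brightest probes a total of 5 were past the threshold, 6.41% as compared to 3.52% of all genes, with 1 on the higher side in SB cells and 4 on the lower. The lists were chosen with earlier results of these data known, so this share is not independent of the data. With any probe of a gene counted, 7 of the 78 were past it, beside 980 of all 23484 genes. A further count at an unadjusted p under 0.05 gave 21 of 78 genes, 7 higher and 14 lower, against 18.2% of all genes. The median log2 ratio of the 78 genes was −0.01. None of the 8 partners of the Microprocessor (DDX5, DDX17, SRRT, KHSRP, HNRNPA1, ERH, SAFB2 and SRSF3) was past the threshold, with values from −0.16 to 0.05 and 3 past an unadjusted p of 0.05. None of the 14 effectors bound through TNRC6, which are PABPC1 and genes of the deadenylase complexes besides the TNRC6 paralogs, was past it either, with values from −0.20 to 0.23 and 3 past an unadjusted p of 0.05. The 6 tested PIWI-clade Argonautes and piRNA factors, a branch active mainly in the germline, ran from −0.03 to 0.14, with 0 past the threshold and 1 past an unadjusted p of 0.05.

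Of the 12 Dicer partners and Argonaute loading factors, 1 was called, HSP90AA1, a chaperone that holds Argonautes open for loading and has many other clients. Its brightest probe gave log2 ratios of 0.95, 0.43, 0.33 and 0.37, with a mean of 0.52 ± 0.29 (SD, n = 4 arrays; limma, adjusted p = 0.00966), while its dimmer probes gave 0.25 ± 0.18 (SD, n = 4 arrays; limma, adjusted p = 0.0793) and 0.13 ± 0.18 (SD, n = 4 arrays; limma, adjusted p = 0.352). With loess, the brightest probe rose 1.43-fold and the others did not pass the test. The log2 ratio of the brightest probe was 0.35 by the scanner software's ratios and 0.98 with each array centred on its median. SND1, a RISC component known to bind AEG-1, had log2 ratios of −0.04, 0.18, 0.00081 and 0.18, with a mean of 0.08 ± 0.12 (SD, n = 4 arrays; limma, adjusted p = 0.518). ADAR, which edits double-stranded RNA, had −0.02 ± 0.16 (SD, n = 4 arrays; limma, adjusted p = 0.928).

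Read by the brightest probe of each gene, the list of decapping and repression factors and that of microRNA tailing and decay held 1 called gene each. XRN1, the exonuclease that degrades decapped mRNAs, was the 1 of 15 decapping and repression factors to pass. Its log2 ratios were −0.32, −0.31, −0.43 and −0.22, with a mean of −0.32 ± 0.08 (SD, n = 4 arrays; limma, adjusted p = 0.0106), 1.25-fold lower in SB cells. DDX6, of the same list, had 0.12 ± 0.32 by its brightest probe (SD, n = 4 arrays; limma, adjusted p = 0.556). It was past the threshold by another of its probes and by the mean over its probes. TUT4, which adds uridines to microRNA precursors and mRNA tails, was the 1 of 6 tested genes of microRNA tailing and decay. Its log2 ratios were −0.21, −0.33, −0.28 and −0.25, with a mean of −0.26 ± 0.05 (SD, n = 4 arrays; limma, adjusted p = 0.0216), the most even of the 5 over the arrays.

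Of the 17 tested transcripts that host microRNAs, 2 fell in SB cells. MIR31HG, the host of miR-31, gave log2 ratios of −0.60, −0.43, −0.54 and −0.22, with a mean of −0.45 ± 0.16 (SD, n = 4 arrays; limma, adjusted p = 0.00429), which is 1.36-fold lower. MIR100HG, the host of miR-100, let-7a-2 and miR-125b-1, gave −0.46, −0.27, −0.49 and −0.32, with a mean of −0.38 ± 0.11 (SD, n = 4 arrays; limma, adjusted p = 0.00520), which is 1.31-fold lower. Both were below 0 on all 4 arrays, and each was read by 1 probe. The normalized levels of SB and SCt cells overlapped for both. The MIR31HG probe was weak, with a mean log2 intensity of 8.34, and its mean ratio was −0.54 without the offset. The other 15 hosts, with MIR17HG, MIR22HG, MIRLET7BHG and MIR155HG among them, did not pass the test by their brightest probes. CTDSP2, which is 1 of these 15, was past the threshold by another of its probes. MIR31HG and MIR100HG are of interest because they carry hairpins of the kind that the Microprocessor and DICER1 cut. The 5p strands of 4 of their microRNAs are given with the seed in capitals. They lie at chr9:21512158-21512178, chr11:122152275-122152296, chr11:122146568-122146589 and chr11:122099809-122099830, all on the minus strand of GRCh38.p14.
hsa-miR-31-5p: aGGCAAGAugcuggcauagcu
hsa-miR-100-5p: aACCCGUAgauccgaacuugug
hsa-let-7a-5p: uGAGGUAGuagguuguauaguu
hsa-miR-125b-5p: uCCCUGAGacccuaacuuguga
The 4 seeds differ, and let-7a and miR-125b are also made from other genes. The level of the mature microRNAs was not measured.

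Without array 3, 0 of these 5 genes were past the threshold (limma; 16 of 78 at an unadjusted p under 0.05). The adjusted p-values without array 3 were 0.0796 for HSP90AA1, 0.0956 for XRN1, 0.118 for TUT4, 0.0790 for MIR31HG and 0.0684 for MIR100HG (limma), while all of them kept their direction. The ratios without array 3 were 0.58, −0.29, −0.26, −0.42 and −0.35 in the same order, as compared to 0.52, −0.32, −0.26, −0.45 and −0.38 over all arrays. Over all genes, 156 were past the threshold without array 3 in place of 826.

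**Figure D4:**
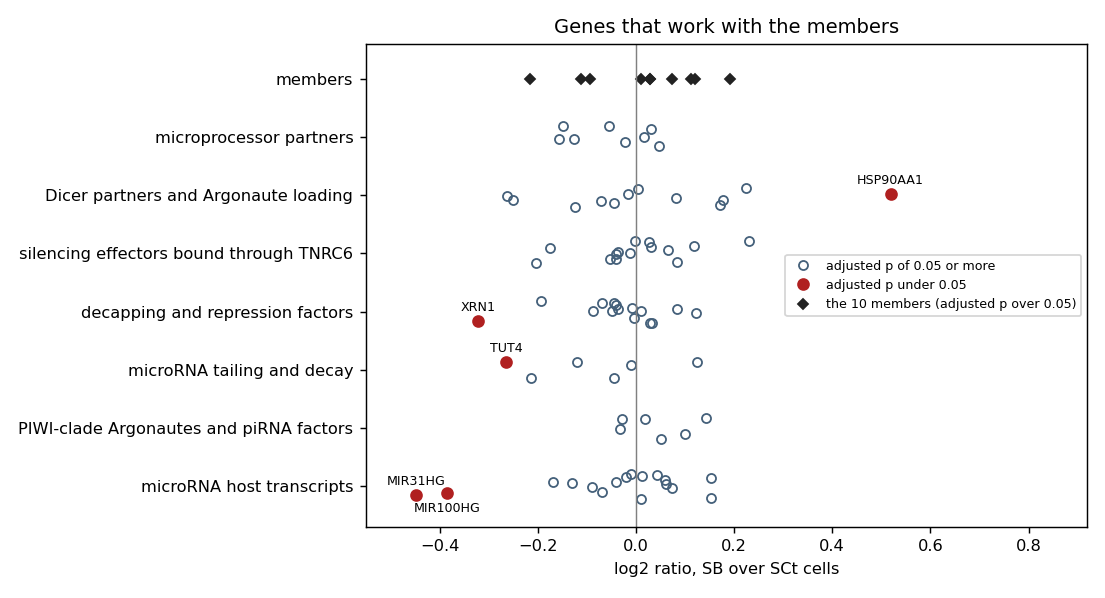
Mean log2 ratio of SB over SCt cells (x axis) for the 10 members (black) and the 78 tested genes of 7 related lists (y axis), each by its brightest probe, with genes past an adjusted p of 0.05 in red. The 5 red genes are HSP90AA1 above 0 and XRN1, TUT4, MIR100HG and MIR31HG below 0.

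The choice of normalization decided whether members were called. With each array centred on its median in place of loess, 5 of 10 members were past the threshold, AGO1 (0.50), AGO2 (0.28), AGO3 (0.23), TARBP2 (0.24) and TNRC6A (0.19), all higher in SB cells. The same setting called 31.9% of all genes, 4876 of them higher and 2624 lower. Median centring shifts each array by 1 value, whereas loess fits the ratio along brightness. With an array left out, 0 members were called beside 156 to 1556 of all genes, and the scanner software's ratios called 0 members beside 572 of all genes. The remaining alternatives also called 0 members, among them the methods' t-test, which called no gene at all after the adjustment added here. DICER1 was lower in SB cells in all 16 and AGO1, AGO2 and TNRC6A were higher in all 16, whereas AGO3, AGO4, DROSHA, DGCR8, XPO5 and TARBP2 took the opposite sign in at least 1. Several of the 16, such as another filter on dim probes or another test, leave the ratio of a gene as it is, so their sign is fixed by construction.

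**Figure D5:**
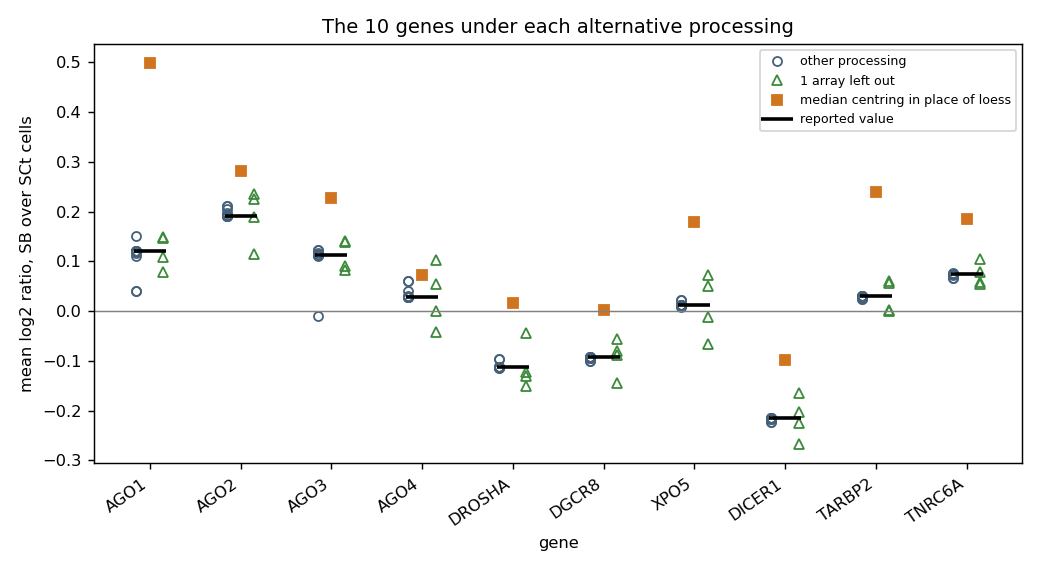
Mean log2 ratio of SB over SCt cells (y axis) of the 10 genes (x axis) under each alternative, with the reported value as a black bar, median centring as an orange square, other processing as circles and 1 array left out as triangles. Median centring lifted all 10 genes, most of all AGO1 from 0.12 to 0.50.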

How the data were processed

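For each two-colour array, the authors deposited the output of the scanner software, Agilent Feature Extraction 10.5.1.1 per the labels, with the median intensity of each spot and its local background. The same deposited files hold the software's ratio on a log10 scale, and a deposited series table holds the ratio on a log2 scale (within 0.001 of the processed red signal over the processed green for 98.7% to 99.1% of probes per array). Its column medians were −0.02 to 0.02. RNA was labelled from 15 μg. Red over green was read as SB over SCt, as the labels give the dyes.

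The steps, run with limma 3.58.1 under R 4.3.3, were normexp with an offset of 50 over 44495 spots, removal of 1377 control spots and of outlier spots (814 to 1168 per array), loess within arrays, and averages over spots of a probe. A probe was kept if 1 and the same channel stood well above background on each of the 4 arrays and at least 2 arrays gave values, and the 28505 kept probes of 34127 were tested against 0 with lmFit and eBayes. Levels per channel were taken after Aquantile. Accessions named 24826 probes through RefSeq (GRCh38.p14), while the probe design refers to an earlier build, so no gene positions are given. The 9301 probes without a symbol kept their accession in place of a gene name, so the shares of all genes include such accessions. The number of arrays limits the precision. Sequences of microRNAs are those of RefSeq, GRCh38.p14.

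The 10 genes and the lists were chosen with earlier results of these data known. Named genes were the members, MTDH, 5 fixed partners (PRKRA, TNRC6B, TNRC6C, SND1, ADAR) and the list genes past the threshold with 1 sign on all arrays, up to 20. On simulated arrays with 28505 probes, 77 of 100 probes changed by 0.5 and 99 of 100 changed by 1 on the log2 scale were called in the right direction, with 6 false calls among 182. The median estimate for a change of 0.5 was 0.45. Changes as small as those of the members, 0.22 at most, were not simulated, so their recovery is not known. The simulated arrays shared 1 dye curve and had independent noise for each probe, which real arrays need not have. Alternatives left out each array in turn, kept outlier spots, filtered dim probes otherwise, centred on medians, added Aquantile, dropped the offset or the background correction, took the ratios of the software or of the series table, chose probes otherwise, or tested with trend and robust eBayes or the methods' t-test.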

Additional observations from a re-analysis of the deposited data

Results flagged for a closer look

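HSP90AA1 stood out by its brightest probe, at which a single array was far from the rest. The log2 ratio was 0.95 on array 1, as compared to 0.33 to 0.43 elsewhere, and the gap took 0.836 of the range, just above the critical value of Dixon's test. Of the 25 probes examined in this way, 1 was singled out, and chance marks about 5% of groups. Leaving out array 1 gave this probe a mean of 0.38 (limma, adjusted p = 0.0169). The means of its dimmer probes over all arrays were 0.25 and 0.13.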

How the results depend on the processing

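The count of member genes past the threshold was 0 in the reported analysis and moved only under median centring, to 5 genes and 6 probes, all higher in SB cells. Without replicates 1 to 4 in turn it was 0 each time. Median centring also moved the count over all probes from 1056 (377 higher, 679 lower) to 8937 (5599 higher, 3338 lower), over all genes from 826 to 7500, and over the related genes from 5 to 24. The series table gave 698 probes, 529 genes and 3 related genes, eBayes with trend and robust options 579 probes and 445 genes, and the methods' t-test 0 probes, 0 genes and 0 related genes (3936, 3206 and 12 at an unadjusted p under 0.05; 4263 genes by limma). MTDH kept its ratio of −3.18 under that test with an adjusted p of 0.144, and was otherwise called in all alternatives, from −3.24 to −3.06. With an array left out, the calls ranged from 204 (without array 3) to 1991 (without array 4) for probes, 156 to 1556 for genes and 0 to 9 for related genes, with 339 genes without array 2 and 496 without array 1.

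Signs turned only at values that were not called. AGO3 had −0.011 with the mean over its probes, and median centring turned DROSHA to 0.016, DGCR8 to 0.0024 and ADAR to 0.15. ADAR was 0.00066 by the software's ratios and 0.00066 by the series table. With an array left out, AGO4 ranged from −0.043 to 0.10, XPO5 from −0.066 to 0.073, TARBP2 from −0.00038 to 0.059 and ADAR from −0.074 to 0.05. TUT4 was also not called by the series table (limma, adjusted p = 0.0508), with trend and robust options (limma, adjusted p = 0.0501) and without arrays 1 or 2, XRN1 not without array 2 (limma, adjusted p = 0.0571), and HSP90AA1 not by the software's ratios (limma, adjusted p = 0.114) or the series table (limma, adjusted p = 0.121). No other reported ratio changed its sign. The causes were not tested. The ratio within each array already pairs SB with SCt cells, and a further replicate block could not be fitted with 1 group of arrays.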
